A study of Mus musculus with 9 samples.

Results

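The libraries described here are the 3 controls among the 9 RNA-seq libraries of a study on KANSL1, a scaffold protein of the NSL histone acetyltransferase complex, in the stem cells of the mouse small intestine. They were chosen by their titles, which name GFP-positive cells of KANSL1-WT genotype as replicates 1, 2 and 3, and the sample labels give corn oil as their treatment. Per the series' design text, the mice were Lgr5-EGFP-CreERT2; Kansl1 f/f, in which the Lgr5 locus expresses a green fluorescent reporter together with a Cre recombinase that tamoxifen activates, and loxP sites flank Kansl1. Knockout mice received daily tamoxifen for 3 or 4 days and controls received corn oil, so the controls carry the reporter and, by the design text, the floxed allele, while their genotype label reads WT. The sources used here do not give the GFP gate, the age of the mice or whether the 3 replicates came from separate animals, so the spread below is between libraries and may be technical. GFP-positive cells were sorted by flow cytometry from the small intestine, and mRNA was isolated from their total RNA. No knockout library was used, and with 1 group no test was made.

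Lgr5-positive cells sit at the base of the intestinal crypt, between Paneth cells, and divide to renew the whole epithelium. Wnt signals with R-spondins keep them as stem cells, Notch signals keep them from turning into secretory cells, and BMP signals, which rise towards the villus, end the stem cell state. A cell sorted on a GFP reporter of Lgr5 can be a stem cell or a recent daughter that still holds GFP, and Paneth cells touch stem cells on most of their surface.

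The controls held 17913787, 16729227 and 12164479 counts in replicates 1, 2 and 3. Mitochondrial genes took 25.8%, 16.4% and 17.8% of these, which left 13284142, 13980785 and 9996919 counts on nuclear genes. Levels are given as TPM, the counts of a nuclear gene divided by the length of its merged exons. These are scaled to a common sum over the nuclear genes of each library. Unless stated, ratios between libraries are taken from CPM, counts scaled in the same way to the nuclear total with no length in it. TPM or raw counts listed for the 3 libraries also carry differences in scaling or depth. Eif5a, for example, had 1149, 1147 and 1146 CPM but 681, 796 and 827 TPM in replicates 1, 2 and 3. A count of 1 was worth at least 0.0715 CPM. Among 9820 protein-coding genes, Pearson's r of log2 CPM between libraries, across genes, was 0.958 to 0.965. Over all identifiers with a count in either library of a pair, mitochondrial genes and pseudogenes included, counts differed by more than sampling noise. Chi-square was 13.5 to 54.0 units for each degree of freedom, so the 3 were counted as separate libraries. Replicate 1 stood apart in that its 10 highest genes took 23.5% of nuclear TPM, against 14.4% and 14.0% in replicates 2 and 3. Scaling by TMM, which sets the bulk of genes level, raised the median gene of replicate 1 by 0.12 on the log2 scale and lowered it by 0.04 and 0.08 in the others, so counts of genes highest or lowest in 1 library are given under both scalings.

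A gene was called detected at 1 TPM or more in each library, and 9632 of 21761 protein-coding genes (44.3%) were. That share is the background for each count of detected list members below. The median level of detected genes was 11.7 TPM. The top 10% of detected genes, 963 genes, began at 81.7 TPM. Protein-coding genes held 61.5% of nuclear TPM, the rest lying in pseudogenes and other classes, and the 767 protein-coding genes over 100 TPM (3.52% of all coding genes) held 45.2% of nuclear TPM. A total of 9267 coding genes averaged under 0.1 TPM.

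All 4 of the genes that mark these cells were present in every library. Olfm4, a secreted glycoprotein of crypt base stem cells (chr14:79984081-80023139, plus strand), had 217185, 261536 and 198259 counts, or 7775, 10416 and 11485 TPM (mean 9892 ± 1910, SD, n = 3), and ranked 9 by mean TPM among coding genes, those with Gm numbers included. Ascl2, the transcription factor that sets the stem cell programme downstream of Wnt (chr7:142966829-142969264, minus strand), had 1704, 1552 and 1408 counts, or 111, 113 and 149 TPM (124.3 ± 21.3, SD, n = 3). Smoc2, a matricellular protein (chr17:14279506-14404790, plus strand), had 5633, 6019 and 4683 counts, or 85.9, 102 and 116 TPM (101 ± 14.9, SD, n = 3). These 3 genes were in the top 10% of detected genes, with replicate 1 the lowest in TPM for each. In CPM, Ascl2 had 128.3, 111 and 141, with replicate 2 the lowest, while replicate 1 stayed lowest for Olfm4 and Smoc2. The exons of Olfm4 overlap another identifier, so its counts may be split.

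Lgr5 itself, the R-spondin receptor whose locus drives the GFP (chr10:115450311-115587780, minus strand), lay near the middle of detected genes. Its 787, 1052 and 876 counts gave 8.13, 12.1 and 14.6 TPM (11.6 ± 3.28, SD, n = 3), and it ranked 4842. In CPM its values were 59.2, 75.2 and 87.6, a range of 1.48 times from replicate 1 to replicate 3. The length used matters here, since the merged exons of Lgr5 span 10264 bases and the longest transcript alone gave 21.6 TPM and a rank of 3566. Whether the reporter insertion lowers the counted transcript was not tested.

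Of 34 stem cell markers 33 were detected, 9 lay in the top 10% and 26 lay above the median of detected genes. Their median was 29.6 TPM. Beside Olfm4, Ascl2 and Smoc2, the top 10% held Kcne3, a potassium channel subunit (199, 247 and 356 TPM), Cdca7, a DNA replication and chromatin factor (198, 265 and 284 TPM), and Hopx, a homeodomain protein also used to mark slow-cycling reserve cells (186, 244 and 305 TPM). It also held Slc12a2, a sodium, potassium and chloride cotransporter, at 184 ± 32.4 TPM, Gkn3 at 158 ± 22.4 TPM and Igfbp4, an IGF-binding protein, at 97.5 ± 37.5 TPM (SD, n = 3).

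Other markers proposed for slower or more primitive crypt cells, unlike Hopx, lay outside the top 10%. Prom1, a membrane glycoprotein, had 45.2, 45.6 and 47.0 TPM. Lrig1, a feedback inhibitor of ErbB receptors, had 15.4, 32.0 and 44.5 TPM, and Bmi1, a Polycomb protein, had 15.1 ± 3.41 TPM (SD, n = 3). Tert, the telomerase catalytic subunit, was the 1 marker not detected, with 14, 25 and 17 counts (0.428 ± 0.146 TPM, SD, n = 3).

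**Figure D1:**
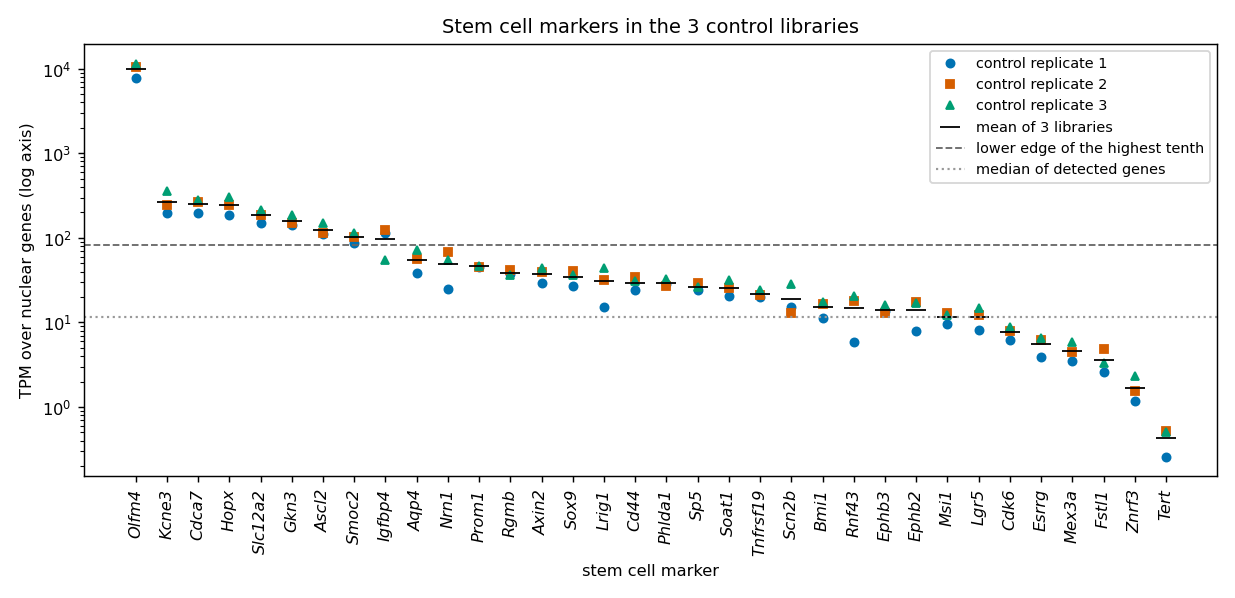
TPM of the 34 stem cell markers (log axis) in control replicates 1 to 3 (coloured symbols) with the mean of the 3 libraries (black bars). The dashed line is the lower edge of the top 10% at 81.7 TPM, which 9 markers exceed, the dotted line the median of detected genes at 11.7 TPM. Lgr5 sits beside the dotted line at 11.6 TPM, while Olfm4 sits near 9892 TPM.

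The promoters of the highest marker and of the stem cell transcription factor differ in base composition, and both are shown for that reason. They are the 250 bases before the RefSeq start, 5′ to 3′ on the strand of the gene, on build GRCm38.p6, with each CG pair in capitals. Olfm4 (chr14:80000052-80000301, plus strand) has 4 CG pairs, and Ascl2 (chr7:142969265-142969514, minus strand) has 19.
Olfm4: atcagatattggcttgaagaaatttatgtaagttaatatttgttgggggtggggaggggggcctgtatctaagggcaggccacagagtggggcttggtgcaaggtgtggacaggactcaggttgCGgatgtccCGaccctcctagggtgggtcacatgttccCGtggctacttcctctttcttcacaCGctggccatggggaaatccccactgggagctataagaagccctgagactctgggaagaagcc
Ascl2: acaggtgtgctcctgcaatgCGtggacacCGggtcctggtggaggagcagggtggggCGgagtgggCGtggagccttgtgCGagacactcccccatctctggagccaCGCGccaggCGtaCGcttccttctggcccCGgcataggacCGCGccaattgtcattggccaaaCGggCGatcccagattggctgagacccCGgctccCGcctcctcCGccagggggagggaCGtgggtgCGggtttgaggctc

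Among 16498 of 21739 coding genes that matched a RefSeq window of 300 bases (250 before and 50 after the first listed start), the share with 10 or more CG pairs was 59.0%. It was 26.4% for genes under 0.1 TPM and 63.3%, 82.5%, 88.2% and 83.7% for the tiers from 0.1 to 1, 1 to 10, 10 to 100 and over 100 TPM. The letters TATAAA, searched on both strands, stood in 12.8% of all windows, in 21.01% under 0.1 TPM, 5.98% from 1 to 10 TPM and 10.3% over 100 TPM. A GC box, GGGCGG on either strand, stood in 24.4% of windows of genes under 0.1 TPM and 67.8% of those from 10 to 100 TPM, against 48.0% of all windows. A match is only a run of letters, not a bound site.

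The transcription factors that set intestinal identity ranged widely. Of 51 such factors 45 were detected and 8 were in the top 10%, with a median of 15.6 TPM over the list, beside 11.7 TPM over all detected genes. Elf3, an epithelial ETS factor, led at 422, 542 and 565 TPM, and Cdx1, a homeodomain factor of the intestine, had 417, 499 and 509 TPM. Hnf4a, a nuclear receptor of the gut and liver, had 179, 238 and 325 TPM (248 ± 73.0, SD, n = 3), and Cdx2, which specifies intestinal fate, had 179 ± 26.2 TPM (SD, n = 3). Id1, an inhibitor of basic helix-loop-helix factors and a BMP target, had 231, 343 and 173 TPM. Its highest library was replicate 2.

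Lower factors included Sox9, a regulator of progenitor and Paneth cell fate, at 27.2, 40.6 and 36.6 TPM, and Gata4, a factor of the jejunum and duodenum, at 14.9, 31.2 and 28.7 TPM. Gata6 had 21.8 ± 2.51 TPM and Gata5 37.3 ± 5.46 TPM (SD, n = 3). Atoh1, which commits cells to the secretory lineage, had 9.75, 10.7 and 10.7 TPM, a value within the spread of that of Lgr5. Prdm1, which marks the immature gut epithelium, had 1 count in each library. Creb3l3, a regulator of lipid metabolism, had 137, 198 and 4 counts, the widest ratio in this group at 35.4 times in CPM, with replicate 3 the low library.

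In the Wnt pathway 31 of 51 genes were detected, beside 44.3% of all coding genes. The median over the whole list was 2.78 TPM, beside 11.7 TPM over all detected genes. Ctnnb1, which encodes β-catenin, was the highest at 174, 210 and 207 TPM (197 ± 20.3, SD, n = 3), and Ccnd1, cyclin D1, had 82.4 ± 7.27 TPM. These were the 2 pathway genes in the top 10%. Among targets and feedback genes, Axin2 had 29.1, 39.5 and 43.6 TPM and Sp5 had 24.1, 28.9 and 26.4 TPM, with ratios between libraries of 1.23 and 1.14 in CPM, while Rnf43, a ubiquitin ligase that clears Frizzled receptors, had 5.90, 18.0 and 20.5 TPM. Rspo1, Rspo2, Rspo3, Wnt2b, Wnt11 and Lgr6 had 3 counts or fewer over the 3 libraries, which is at or under the floor of 3 counts used here. R-spondins and Wnt2b are made mainly by stromal cells.

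Within the receptor and factor families of this pathway, single members held most of the level. Lgr4, a receptor for R-spondins, had 23.8, 27.1 and 30.4 TPM and made up 70.4% ± 3.70 of the summed TPM of the Lgr receptors, with Lgr5 at 29.6% and Lgr6 at 0. Tcf7 made up 92.8% ± 1.73 of the TCF and LEF factors (SD, n = 3), at 15.5, 19.3 and 21.4 TPM. Tcf7l2 had 1.08, 1.38 and 0.958 TPM, under the detection threshold in replicate 3. Frizzled receptors were more even, with Fzd7 at 30.2% ± 2.21 and the highest member differing between libraries. Apc and Gsk3b, the destruction complex scaffold and kinase, had 1.43, 2.08 and 0.202 TPM and 6.63, 6.54 and 2.34 TPM, with replicate 3 low for both.

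In the Notch pathway and secretory fate list 24 of 35 genes were detected, beside 44.3% of all coding genes. Hes6 was highest at 128, 128 and 182 TPM, and Hes1, the main Notch target that represses Atoh1, had 65.9, 77.5 and 71.1 TPM (71.5 ± 5.78, SD, n = 3). Dll1 and Dll4, the ligands that Paneth and other secretory cells present, had 9.84 ± 1.45 and 7.45 ± 1.80 TPM. Notch1 had 4.42, 7.87 and 9.26 TPM and made up 70.1% ± 5.22 of the Notch receptors. Hey1 had 3 counts or fewer over the group.

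The other niche pathways were detected in part. In the BMP and TGF-beta list 19 of 31 genes were detected, beside 44.3% of all coding genes. Bmpr1a, a BMP receptor, had 20.4 ± 3.70 TPM and Smad4, the shared effector, 64.5 ± 10.6 TPM (SD, n = 3). The ligand Bmp4 and the antagonists Grem1, Nog and Chrdl1, which stroma supplies, had 3 counts or fewer over the group, as did Bmpr1b, Tgfb2 and Tgfbr3. In the EGF receptor pathway 24 of 32 were detected, beside the same 44.3%. Erbb3 had 42.3 ± 10.4 TPM and Erbb2 40.1 ± 6.46 TPM, values within each other's spread, and Egfr 3.06 ± 1.37 TPM. Mapk3, the kinase ERK1, had 133, 142 and 142 TPM. Erbb4, Nrg1 and Epgn had 3 counts or fewer.

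Proliferation genes were expressed throughout. All 52 of the S phase genes and 49 of the 50 genes of G2 and mitosis were detected, at medians of 31.6 and 15.2 TPM, against 11.7 TPM over all detected genes. Pcna, the polymerase clamp, had 163, 214 and 243 TPM, Mcm6, a helicase subunit, had 109, 128 and 164 TPM, and Pold2, a polymerase delta subunit, had 107, 151 and 178 TPM. Among mitotic genes Hmgb2 had 157, 237 and 205 TPM, Ube2c 75.4, 141 and 122.5 TPM and Ccnb2, cyclin B2, 60.7, 105 and 101 TPM. Mki67, which coats mitotic chromosomes, had 619, 693 and 509 counts, or 7.78 ± 1.12 TPM over its long transcript.

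Replicate 1 was lowest for 49 of 50 mitotic genes in CPM and 43 of 50 under TMM, beside 61.3% and 37.1% of all 9820 genes with a mean count of at least 50. Replicate 3 was highest for 44 of 52 S phase genes in CPM and 36 of 52 under TMM, beside 49.9% and 35.8% of all genes. The part of the summed Paneth cell level of replicate 1, given below, in these orders was not tested beyond the TMM values.

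The promoters of the mitotic genes share letters that the level did not choose. The CHR element, TTTGAA on either strand, stood in 73.8% of 42 windows of the G2 and mitosis list against 15.6% of all windows, and CCAAT stood in 78.6% against 38.7%. S phase windows held CCAAT in 61.0% and the E2F letters GGCGGGAA in 17.1%, against 2.98% of all windows. Mki67 (chr7:135716380-135716629, minus strand) and Ccnb2 (chr9:70421555-70421804, minus strand) are shown because each holds both runs. Capitals mark CCAAT or its reverse ATTGG and TTTGAA or its reverse.
Mki67: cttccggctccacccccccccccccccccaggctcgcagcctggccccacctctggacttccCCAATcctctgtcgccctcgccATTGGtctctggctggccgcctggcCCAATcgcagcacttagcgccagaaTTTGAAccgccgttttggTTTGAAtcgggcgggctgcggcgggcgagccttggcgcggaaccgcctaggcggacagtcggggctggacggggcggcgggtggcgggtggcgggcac
Ccnb2: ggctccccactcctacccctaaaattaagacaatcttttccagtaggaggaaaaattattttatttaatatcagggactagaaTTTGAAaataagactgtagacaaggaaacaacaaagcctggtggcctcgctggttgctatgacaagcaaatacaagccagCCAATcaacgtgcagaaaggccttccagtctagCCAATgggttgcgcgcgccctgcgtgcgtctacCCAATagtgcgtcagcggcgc

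Ribosomal protein genes summed to 81717, 91365 and 88376 TPM in replicates 1, 2 and 3. All 78 cytosolic ribosomal protein genes were detected and 62 lay in the top 10%, with a median of 367 TPM. They took 8.78% ± 0.450 of nuclear counts (SD, n = 3), and 300 pseudogenes named for them took a further 4.11% ± 0.372. For 22 of 60 of these genes with such pseudogenes, the pseudogenes held more counts than the gene, so single values are uncertain. The translation elongation factor Eef1a1 had 10174, 12162 and 12653 TPM, and Rplp1, a ribosomal stalk protein, had 10189, 12087 and 11623 TPM. Ribosome biogenesis genes, 34 of 34 detected, had a median of 47.7 TPM. In CPM replicate 1 was highest for 49 of 75 ribosomal protein genes, and under TMM for 66 of 75, against 14.1% and 32.9% of all genes, and replicate 3 was lowest for 54 and 61, against 19.5% and 33.5%.

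Mitochondrial energy genes were also high. All 57 nuclear-encoded subunits of oxidative phosphorylation were detected and 47 were in the top 10%, with a median of 230 TPM. Of the 56 with a mean count of at least 50, none had a ratio between libraries over 2 in CPM and 1 did under TMM, beside 8.24% and 7.39% of all genes. Cox8a, a subunit of cytochrome oxidase, led with 1178, 1634 and 1514 TPM. All 18 genes of the TCA cycle were detected at a median of 112 TPM, and 24 of 28 glycolysis genes at a median of 26.7 TPM over the whole list. Of the mitochondrial genes, mt-Co1 took 6.13%, 3.94% and 4.36% of all counts, and mt-Atp6 had 1.93 ± 0.0910 times as many counts per base as mt-Co1 (SD, n = 3). Pseudogenes on chromosome 1 that share sequence with the mitochondrial genome took 1.76% to 3.19% of nuclear counts, with the highest share in replicate 1, and reads of the nuclear and mitochondrial copies cannot be told apart in these counts.

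Genes of epithelial structure varied about as much as other genes, with a median coefficient of variation of CPM of 13.8% against 14.4% over all 9820 genes. Of 32 junction and keratin genes 31 were detected, 13 lay in the top 10% and none of 31 had a ratio over 2 between libraries under either scaling, beside 8.24% of all genes in CPM and 7.39% under TMM. Krt8 and Krt19, keratins of simple epithelia, had 1625 ± 217 and 1625 ± 206 TPM (SD, n = 3), and Epcam, an adhesion molecule of epithelium, had 770, 976 and 941 TPM. Cdh1, E-cadherin, had 222, 286 and 297 TPM, and Cldn3, a tight junction claudin, had 621, 727 and 751 TPM. Cldn3 was also among the 10 genes with the lowest coefficient of variation in CPM. Eif5a, a translation factor, was the lowest of these, with 15261, 16035 and 11456 counts and a coefficient of variation of 0.127%.

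Across 37 gene families in which at least 1 member was expressed, the highest member was the same in all 3 libraries for 29, and in 23 it held over 50% of the summed TPM of the family. Those with over 80% were Tcf7, Aqp1, Hnf4a, Dnmt1, Itgb1, Mcl1 and Tet3. Aqp1, a water channel, had 597, 812 and 657 TPM and 91.8% ± 2.10 of the aquaporins, and Dnmt1, the maintenance DNA methyltransferase, 85.8% ± 1.24 of the DNA methyltransferases (SD, n = 3). Of the Hox clusters, those named Hoxa, Hoxc and Hoxd summed to under 1 TPM each, while Hoxb9 and Hoxb7 had 3.05, 2.29 and 8.27 TPM and 4.05, 1.45 and 7.78 TPM. Mycl and Myc shared the Myc family at 52.9% and 44.8%, with the order changing between libraries.

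**Figure D2:**
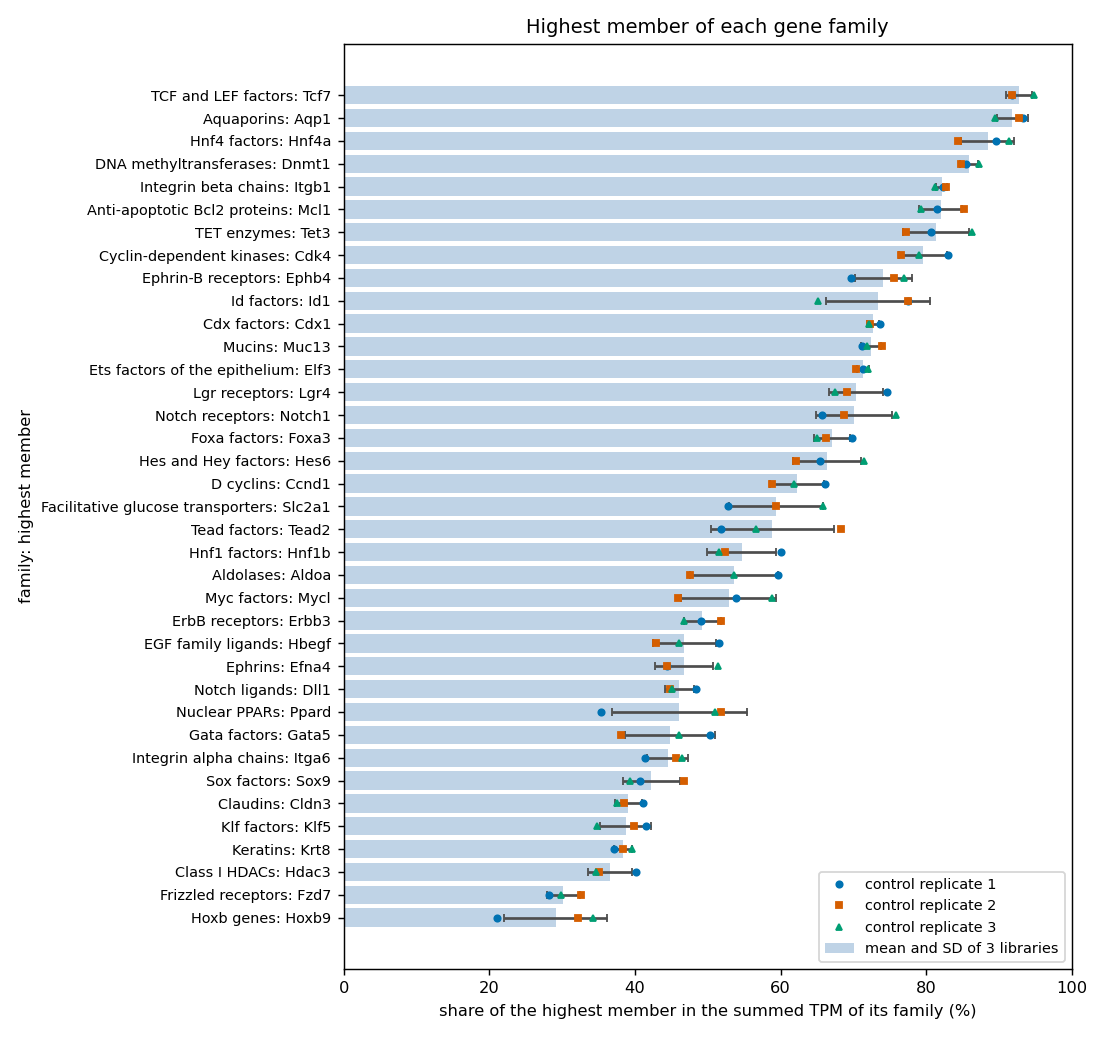
Share of the highest member in the summed TPM of each of 37 gene families, as the mean and SD of 3 libraries (bars) and the value in each control replicate (symbols). Tcf7 leads at 92.8%, and 23 families lie above 50%.

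The libraries also held transcripts that mark other crypt cells, those of Paneth cells before all. Whether they came from such cells or from the sorted stem cells cannot be told in a bulk library. Of 21 Paneth cell markers 20 were detected and 16 lay in the top 10%, with a median of 773 TPM. Defa24, a defensin that kills bacteria in the crypt lumen (chr8:21734494-21735471, plus strand), was the highest coding gene of all, at 49765, 23837 and 25117 TPM. Lyz1, the Paneth cell lysozyme, had 16735, 9085 and 9374 TPM, Itln1, a lectin that binds microbial sugars, had 5477, 2890 and 2328 TPM, and Mmp7, the protease that matures defensins, had 1080, 663 and 576 TPM. Defensin genes are near copies of each other, so the split of reads among them is uncertain while their sum is less so.

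The summed level of the Paneth cell list was 155446, 73535 and 74342 TPM in replicates 1, 2 and 3. Replicate 1 was the highest library for 20 of the 20 members with a mean count of at least 50, under both scalings, beside 14.1% and 32.9% of all genes. For 18 of 20 in CPM and 20 of 20 under TMM the ratio was over 2, beside 8.24% and 7.39% of all genes. Ang4, an antimicrobial ribonuclease, had the widest ratio at 4.69 times, with 12997, 4557 and 2086 counts. Wnt3, the Wnt ligand that Paneth cells supply to stem cells, had 285, 215 and 117 counts, or 9.82, 8.25 and 6.53 TPM. In a bulk library, fewer cells of a type and less RNA per cell cannot be told apart.

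Reg3g, an antibacterial lectin, had 5910, 3016 and 1649 counts and was also highest in replicate 1. The letters ATCAAAG, the core that TCF factors bind, or their reverse CTTTGAT, stood in 5 of 14 Paneth cell windows (35.7%) against 3.16% of all windows, namely those of Reg3g, Defa21, Defa22, Defa30 and Mmp7. The windows of Defa21 and Defa22 are identical over the 250 bases before the start, and with identical windows counted once the letters stood in 4 of 13 (30.8%). Of 25 windows of stem cell markers, 1 (4.00%) held these letters, that of Sp5. Defa22 (chr8:21162027-21162276, plus strand, with 2 matches), Reg3g (chr6:78468875-78469124, minus strand) and Sp5 (chr2:70474673-70474922, plus strand) are shown with these letters in capitals.
Defa22: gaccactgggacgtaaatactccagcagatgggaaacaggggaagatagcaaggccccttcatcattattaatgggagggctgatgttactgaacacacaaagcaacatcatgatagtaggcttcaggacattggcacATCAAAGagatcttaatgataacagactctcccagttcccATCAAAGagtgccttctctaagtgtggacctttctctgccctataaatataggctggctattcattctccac
Reg3g: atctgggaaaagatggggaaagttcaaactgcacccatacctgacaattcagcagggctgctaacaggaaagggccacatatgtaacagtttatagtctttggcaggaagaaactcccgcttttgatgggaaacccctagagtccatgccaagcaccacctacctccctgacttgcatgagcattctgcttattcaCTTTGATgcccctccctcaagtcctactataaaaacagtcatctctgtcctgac
Sp5: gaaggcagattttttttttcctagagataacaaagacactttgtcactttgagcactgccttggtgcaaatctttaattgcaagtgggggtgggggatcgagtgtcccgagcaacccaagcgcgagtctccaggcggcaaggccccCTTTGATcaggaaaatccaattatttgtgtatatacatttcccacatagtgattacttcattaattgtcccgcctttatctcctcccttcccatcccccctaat

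Markers of other epithelial lineages followed at lower levels than those of Paneth cells. Of 18 goblet cell markers 16 were detected, with Spink4 at 2571, 1728 and 2010 TPM and Tff3, a trefoil peptide that guards mucus, at 1303, 1406 and 989 TPM, while Muc2, the gel-forming mucin, had 27.1, 24.2 and 29.5 TPM. Of 35 enterocyte markers 27 were detected. Fabp2, a fatty acid binding protein, had 264, 353 and 329 TPM, but the brush border enzymes Alpi, Sis and Lct had 0.734 ± 0.458, 1.78 ± 0.518 and 0.0729 ± 0.0580 TPM (SD, n = 3).

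Of 27 enteroendocrine markers 12 were detected, a share near the 44.3% of all coding genes. Chga and Chgb, proteins of hormone granules, had 470, 540 and 113 counts and 389, 619 and 90 counts, and Gcg, the proglucagon gene, had 286, 343 and 45 counts. Replicate 3 was the lowest library for 8 of the 9 members with a mean count of at least 50, under both scalings, beside 19.5% and 33.5% of all genes. Tuft cell markers were near absent, 3 of 19 being detected, and their defining genes Dclk1 and Trpm5 had 0.0974 ± 0.0421 and 0.554 ± 0.0544 TPM.

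Markers of cells from outside the epithelium had few reads. Of 25 immune cell markers 1 was detected, Lyz2 at 4.43, 2.78 and 1.82 TPM, and 12 had no count in any library, Cd3e and Cd79a among them. None of 13 mast cell, 21 stromal and vascular, 7 red blood cell or 12 enteric neuron and glia markers was detected, and 7, 10, 2 and 7 of them had no count. Lyz2 lies beside Lyz1 and is close to it in sequence, so its reads may belong to either. Summed over each list, these markers reached 7.32 to 9.28 TPM for immune cells and 2.30 to 3.98 TPM for stromal and vascular cells.

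**Figure D3:**
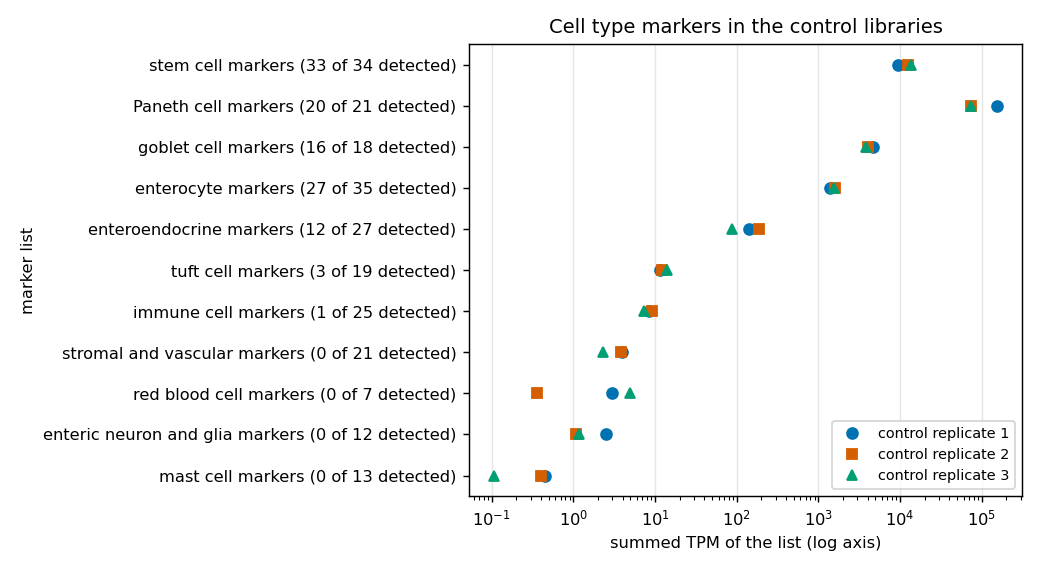
Summed TPM of the marker list of each cell type (log axis) in the 3 control replicates, with the number of detected members. Paneth cell markers reach 155446 TPM in replicate 1 and stem cell markers 9387 to 13782 TPM, while the lists of cells outside the epithelium stay under 10 TPM. Olfm4 alone averages 9892 of the mean 11869 TPM of the stem cell list.

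Genes of protein quality control stood above most detected genes. Of 19 heat shock and chaperone genes 17 were detected, at a median of 133.6 TPM over the list, and Hsp90ab1, a cytosolic chaperone, had 1353, 1767 and 1817 TPM. Of 25 endoplasmic reticulum stress genes 23 were detected at a median of 76.9 TPM, led by Calr, a lectin chaperone, with 390, 512 and 669.5 TPM. CCAAT stood in 81.0% of the 21 windows of that list, against 38.7% of all windows. Of 28 antioxidant genes 25 were detected, beside 44.3% of all coding genes. None of 25 had a ratio over 2 under either scaling, beside 8.24% of all genes in CPM and 7.39% under TMM. Their median coefficient of variation was 11.8% in CPM against 14.4% over all genes, and 12.7% against 12.3% under TMM. Txn1, thioredoxin, had 1004, 1070 and 1017 TPM.

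Chromatin, death and interferon genes were lower. All 27 apoptosis genes were detected at a median of 10.6 TPM, and Mcl1, an inhibitor of apoptosis, had 57.9, 84.6 and 73.3 TPM, or 82.0% ± 2.98 of the anti-apoptotic Bcl2 proteins (SD, n = 3). Of 31 acetyltransferases and deacetylases 28 were detected at a median of 6.77 TPM, none in the top 10%, and Hdac3 was the highest at 45.7, 48.9 and 54.3 TPM. Of the 29 with a mean count of at least 50, none had a ratio over 2 in CPM and 1 did under TMM, beside 8.24% and 7.39% of all genes. Of 28 genes of Polycomb, DNA methylation and remodelling 26 were detected, led by Rad21, a cohesin subunit, at 63.6, 102 and 96.9 TPM. Of 34 interferon response genes 18 were detected, beside 44.3% of all coding genes, at a list median of 1.56 TPM, and none lay in the top 10%.

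Between the libraries, most genes varied little. The median coefficient of variation of CPM over the 9820 genes with a mean count of at least 50 was 14.4%, with quartiles of 8.95% and 21.9%, where counting error alone would give a median of 5.07%. The common biological coefficient of variation from edgeR was 19.97%. The highest library was over 2 times the lowest for 809 genes (8.24%) in CPM and 726 (7.39%) under TMM, and over 10 times for 26 in CPM. The stem cell markers passed 2 times for 5 of 33, namely Rnf43, Igfbp4, Lrig1, Nrn1 and Scn2b.

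**Figure D4:**
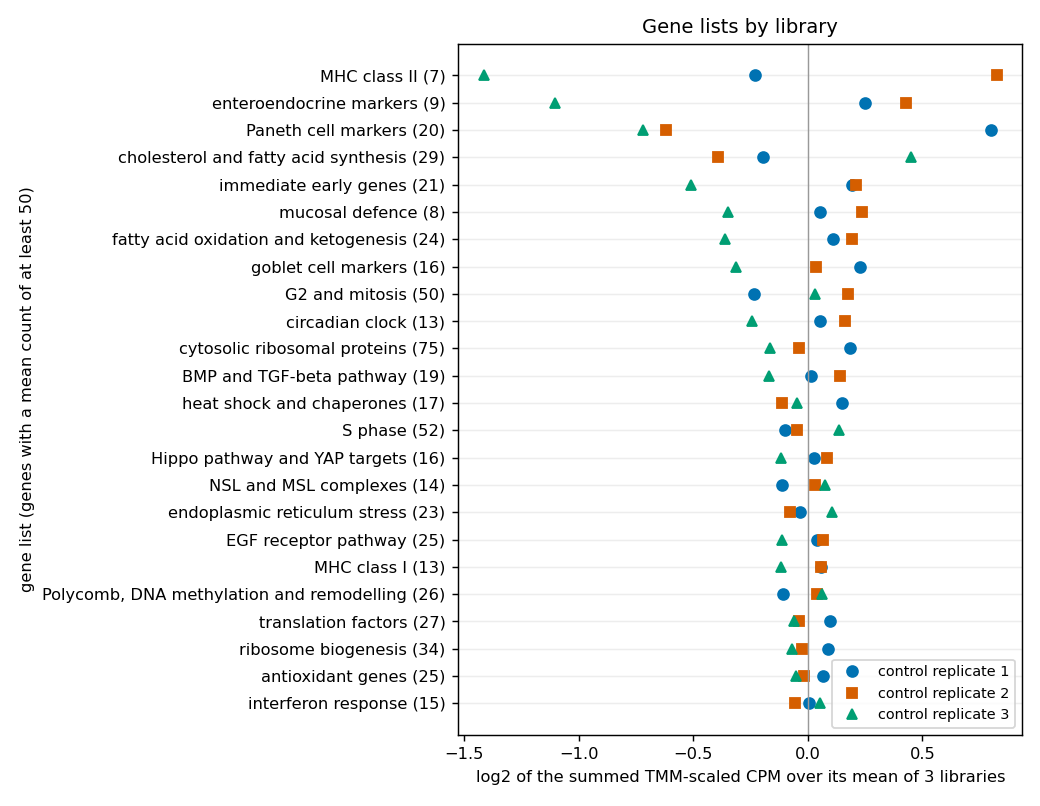
Summed TMM-scaled CPM of 24 gene lists in each control replicate, as log2 of its ratio to the mean of the 3 libraries, for the lists that varied most. Paneth cell markers stand highest in replicate 1, MHC class II in replicate 2 and cholesterol and fatty acid synthesis in replicate 3.

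Genes of antigen presentation by MHC class II had the highest median coefficient of variation of CPM among the lists, 69.5%, ahead of the Paneth cell markers at 54.4%. Cd74, the invariant chain, had 3320, 9188 and 1414 counts, or 210, 646 and 145 TPM. H2-Ab1 had 1935, 3894 and 569 counts, H2-Aa 913, 1949 and 250, and H2-Eb1 774, 2172 and 372. All 7 members with a mean count of at least 50 were highest in replicate 2 and lowest in replicate 3 under both scalings. Each had a ratio over 2. Over all genes, replicate 2 was highest for 36.1% in CPM and 31.2% under TMM, and replicate 3 lowest for 19.5% and 33.5%. A ratio over 2 was found for 8.24% and 7.39% of all genes. Ciita, the activator of these genes, followed at 55, 136 and 30 counts. Immune cell markers summed to 8.38, 9.28 and 7.32 TPM in the same libraries, and Cd80 and Cd86, costimulatory molecules of professional antigen-presenting cells, had no count. Lyz2, highest in replicate 1 and with reads that may belong to Lyz1, averaged 3.01 of the mean 8.33 TPM of that sum. The part of immune cells in the MHC class II levels was not tested. The MHC class I gene B2m had 747, 1073 and 923 TPM, a ratio of 1.23 in CPM.

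Genes of sterol and fatty acid synthesis were mostly highest in replicate 3. It was the top library for 27 of 29 such genes in CPM and 25 of 29 under TMM, beside 49.9% and 35.8% of all genes. Under each scaling 14 of 29 had a ratio over 2, beside 8.24% of all genes in CPM and 7.39% under TMM. Scd2, a fatty acid desaturase, had 1450, 773 and 4176 counts. Sqle, squalene epoxidase, had 517, 515 and 930 counts, and Insig1, which holds back sterol synthesis when sterols are plentiful, had 577, 367 and 825. Idi1, an isoprenoid isomerase, went the other way with 1547, 1316 and 210 counts.

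CCAAT stood in 85.7% of the 21 windows of this list against 38.7% of all windows, while the sterol element letters CACCCCAC stood in 1 of them (4.76%, against 2.82%). That 1 window is Hmgcs1 (chr13:119690101-119690350, plus strand), HMG-CoA synthase, shown with CCAAT or ATTGG and CACCCCAC in capitals. Hmgcs1 had 751, 615 and 827 counts.
Hmgcs1: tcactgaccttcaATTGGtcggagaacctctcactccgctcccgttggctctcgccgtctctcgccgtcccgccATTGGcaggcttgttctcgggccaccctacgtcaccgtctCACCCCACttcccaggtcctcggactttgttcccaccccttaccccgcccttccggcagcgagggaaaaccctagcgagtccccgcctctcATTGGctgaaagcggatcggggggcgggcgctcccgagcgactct

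Fatty acid oxidation and ketogenesis genes were low in the same library. Replicate 3 was the lowest for 13 of 24 in CPM and 17 of 24 under TMM, beside 19.5% and 33.5% of all genes. In CPM replicate 1 was the lowest for 11 of the 24, and replicate 3 was the highest for 6. Pdk4, a kinase that spares glucose, had 65, 370 and 6 counts, and Acadl, a long-chain acyl-CoA dehydrogenase, had 1459, 1960 and 538. Cpt1a, the carnitine gate to mitochondria, and Angptl4, a lipase inhibitor, were named after their values were seen, with 1650, 2753 and 800 and with 241, 769 and 35 counts. Fabp1, a fatty acid binding protein of enterocytes, had 354, 482 and 35 counts. The enterocyte list as a whole did not share this drop, with sums of 1781, 1886 and 1906 CPM, a ratio of 1.07.

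Immediate early genes, which respond within minutes to growth factors or to handling of tissue, were also lowest in replicate 3, for 18 of 21 in CPM and 20 of 21 under TMM, beside 19.5% and 33.5% of all genes. Fos had 352, 495 and 258 TPM, Jun 131, 167 and 119 TPM and Egr1 68.8, 88.0 and 54.7 TPM, and Ccn1, a matricellular target of YAP, had 97.1, 156 and 51.8 TPM. The sources used here do not give the time from tissue to sort, and its part in these levels was not tested.

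Among the 15 most variable genes by coefficient of variation with a mean count of at least 500 were Thap12, with 166, 161 and 1796 counts, and Pheta1, with 1172, 230 and 122. Chtf8, Adnp, Scamp4, Scd2, Ctdsp2 and Cd74, also on this list, share exons with a further identifier on either strand, so their counts may be split. Adnp had 0, 1114 and 681 counts while Gm20716, which overlaps it on the same strand, had 1055, 0 and 0, so the sum of the pair was 1055, 1114 and 681. Gm20716 also overlaps Dpm1, which had 17, 351 and 284 counts, so its reads cannot be assigned to Adnp alone. Scamp4 with Gm49322 summed to 1508, 1435 and 1183 counts, a ratio of 1.15 in CPM. Chtf8 with a further identifier of that name summed to 2530, 1954 and 2597 counts, a wider ratio of 1.86.

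The complex that the study targets was expressed in these controls, below the top 10% of detected genes. Of 14 genes of the NSL and MSL complexes 13 were detected, none in the top 10%. The list median was 9.93 TPM, beside 11.7 TPM over all detected genes. Kansl1 (chr11:104333229-104468861, minus strand) had 115, 344 and 219 counts, or 1.77, 5.90 and 5.47 TPM, each under that median of detected genes. Replicate 1 stood apart from the other libraries for Kansl1, at a ratio of 2.84 in CPM. The exons of Kansl1 overlap another identifier, so its counts may be split. Kat8, the acetyltransferase of both complexes, had 10.1, 15.02 and 14.9 TPM, and Wdr5, a WD40 scaffold shared with other chromatin complexes, was the highest at 30.8, 47.3 and 54.2 TPM. Kansl3 had 187, 437 and 412 counts, also over 2 times, while Kansl2 (7.37, 10.5 and 11.3 TPM), Mcrs1, Phf20, Hcfc1, Ogt, Msl1, Msl2 and Msl3 stayed under a ratio of 2. Pseudogenes named for Kansl2 held 58.7% of the joint counts with it, so its level is uncertain. Msl2, a subunit of the MSL complex alone, had 19.03, 22.8 and 22.4 TPM.

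**Figure D5:**
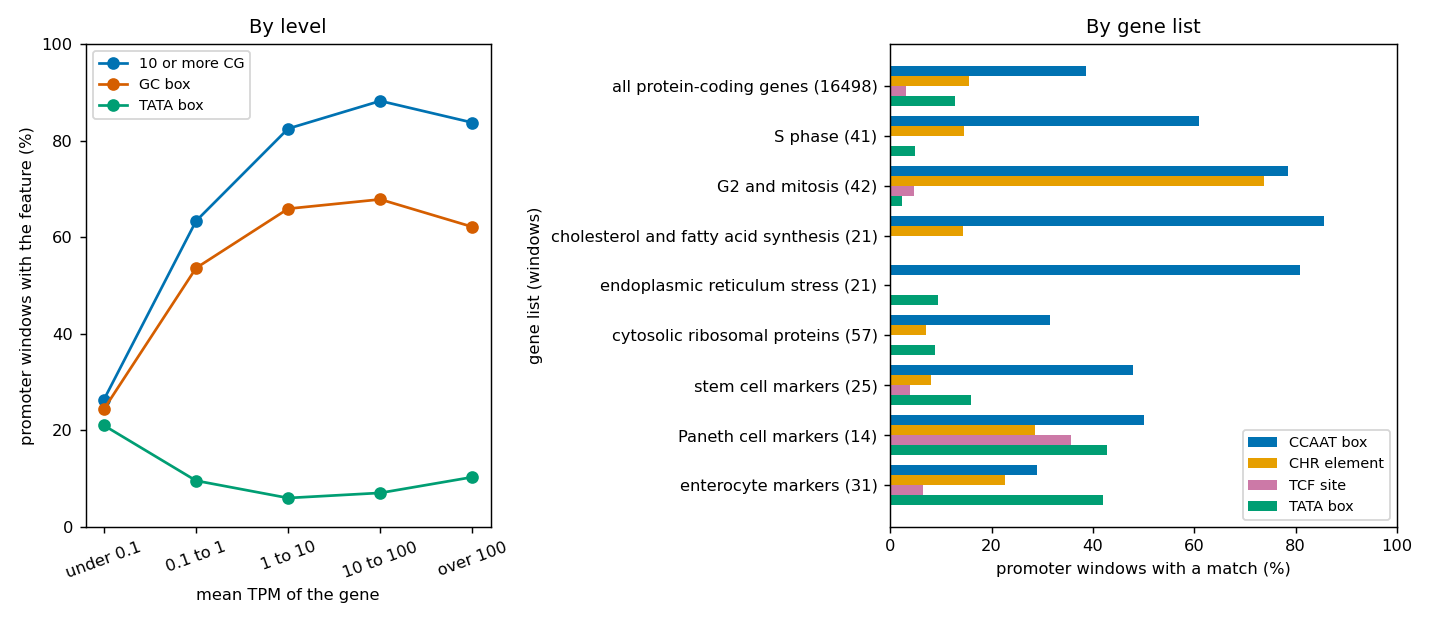
Left, share of RefSeq promoter windows with 10 or more CG pairs, a GC box or a TATA box by the mean TPM of the gene. Right, share of windows with a CCAAT box, CHR element, TCF letters or TATA box in gene lists, where CHR letters stand in 73.8% of mitotic windows and TCF letters in 35.7% of Paneth cell windows (30.8% with identical windows counted once), against 15.6% and 3.16% of all windows.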

How the data were processed

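Of the table of raw counts that the authors deposited, 1 column a library and 1 Ensembl identifier a line with no normalization, the 3 control columns were used. The submitters' processing notes name HISAT2 2.0.4 and build GRCm38. How reads were counted, with or without strand, and on which annotation release is not given in the sources used here, so reads of overlapping, antisense and near-identical genes cannot be told apart. Of 57180 identifiers 51933 were named through GENCODE M21, whose coordinates are used, and the others held 0.430% to 0.558% of counts.

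TPM used merged exon lengths of nuclear genes of at least 200 bases, and CPM the nuclear counts. TMM factors and the common biological coefficient of variation came from edgeR 4.0.16 in R 4.3.3. Spread was described for coding genes with a mean count of at least 50. No test was made, as there is 1 group. The script steps that find ratios over 2 and the common coefficient of variation were tested on simulated data. Named genes were the 30 highest, the 15 most and 10 least variable, members of 5 lists in full and, from the other lists, the highest, the most variable and those at or under 3 counts; other named genes fall outside this rule and were chosen for their role after their values were seen. A few genes within the rule are not reported here. The members and the 48 lists were chosen with earlier results of these data known. The sterol, E2F and CHR letters, the coding-only alternatives, the TMM counts for lists and the pairs of overlapping identifiers were added after seeing the data. Alternatives covered thresholds, lengths, scaling, filters and leaving out each replicate. The ± values are SDs between libraries, and the floor of 3 counts covers counting error only.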

Additional observations from a re-analysis of the deposited data

How the results depend on the processing

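No paired analysis was possible because 1 group was described and no result comes from a test. The number of genes with a ratio over 2 between libraries was 809 of 9820. With a minimum mean count of 20 it was 1217 of 10763 and with 200 it was 368 of 7080, since more or fewer low genes enter. Leaving out 1 replicate gave 355 to 451, with 355 without replicate 1, and 2 libraries have a smaller range by construction. TMM gave 726, RLE 727 and leaving out Paneth cell markers and mitochondrial copies 734.

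The 100 highest genes held 51.0% ± 5.57 of nuclear TPM, 58.4% without genes that share exons and 47.8% to 52.9% with a replicate left out. The median over families of the share of the highest member, taken per library, was 60.4%, 55.4% with CPM and no length scaling and 59.7% to 60.9% with a replicate left out. The median over lists of their summed TPM was 634, 510 when mitochondrial counts stayed in the total and 586 to 694 with a replicate left out. Of 9632 detected genes the alternatives gave 8472 at 2 TPM to 10907 at 10 counts, and 9724 to 10017 with a replicate left out. The stem cell markers in the top 10% numbered 9 with any replicate left out, 6 without genes that share exons and 11 in CPM. The common biological coefficient of variation was 19.97%, 23.6% with no filter on low counts and 19.03% to 21.2% with a replicate left out. Of 235 summed list levels under the alternatives 42 moved by more than 1 SD, 28 with total counts and 14 with the longest transcript length, and of 24 values of Lgr5, Olfm4, Ascl2 and Smoc2 6 did. A gene at 3 counts or fewer over the group cannot be told from one with none at this depth.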

Other observations

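Of 8 genes of the proximal and 7 of the distal small intestine 5 each were detected, beside 44.3% of all coding genes, at list medians of 2.39 and 5.36 TPM. Of these, 1 in each list lay in the top 10% of detected genes, Gkn3 with 142, 149 and 184 TPM and Bex1 with 100.3, 61.8 and 95.6 TPM, and Fabp6, the ileal bile acid binding protein, had 156, 34 and 39 counts in replicates 1, 2 and 3, or 34.5, 8.37 and 14.0 TPM. Gata4, a factor of the proximal part, had 549, 1032 and 654 counts. Of 19 genes of the circadian clock 12 were detected, and Clock had 46, 416 and 325 counts. Of 21 imprinted genes 5 were detected and 8 had no count. Ddx3y, Eif2s3y, Kdm5d and Uty, genes of the Y chromosome, had counts in all 3 libraries, and Xist had 2, 0 and 0.

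Pseudogenes took 13.2% to 15.7% of nuclear counts. For 34 of 256 coding genes with pseudogenes named for them the pseudogenes held more counts than the gene, among them 22 of 60 ribosomal protein genes. For Rps6 they held 99.1% of the joint counts and for Tpt1 90.6%, so the values of these genes alone are uncertain.

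Pairs of coding identifiers on 1 strand that share exons were examined after the data had been seen. In 16 of 363 such pairs the split of the counts moved by over 50 percentage points between libraries. Ifitm2 and Gm45717 had 1777, 4363 and 3386 and 2024, 0 and 0 counts, Commd5 and Gm49527 337, 35 and 254 and 0, 312 and 11 counts, and the summed counts of these pairs had ratios of 1.18 and 1.07 in CPM. Other pairs kept wider ratios after summing, with 3.21 for Gm20716 and Dpm1, 2.93 for Zfp7 and Gm49527 and 2.18 for Setd1a and Gm49388. Summing a pair thus did not even out the libraries in every case. The part of the counting in these splits was not tested. Exactly 1 count in each of the 3 libraries was listed for 387 identifiers, 94 of them among 1124 miRNA genes, of which 893 had no count.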
